A study of Mus musculus with 6 samples.

Results

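Long blocks of chromatin state 8 were segments of 10.0 kb or more that carried state number 8 in an 18-state chromatin map of mouse hematopoietic stem cells (HSCs), on autosomes 1 to 19. The rule found 1396 such blocks among 850831 segments of the whole map and among 61663 state 8 segments on the autosomes. The members were selected on 2 values of this map, state number and length, so both are given below as descriptions. The study profiled the histone variant H3.3 by chromatin immunoprecipitation and sequencing (ChIP-seq) in HSCs sorted from the bone marrow of C57BL/6 mice, either wild type (WT) or with a conditional deletion of Hira (HIRA KO). It comprised 6 libraries: 2 H3.3 ChIP libraries and 1 input library for each genotype. Per the labels, mice received poly(I:C), an inducer of interferon signalling, at 20 ug intraperitoneally on 2 occasions to induce the deletion, and HSCs were sorted 1 week after the first of them; the same protocol text stands on the WT and the HIRA KO samples. The Cre driver, the age of the mice and the number of mice per library are not stated in the labels. A rat monoclonal anti-H3.3 antibody was used on chromatin digested by micrococcal nuclease.

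The map is a single table that assigns each stretch of the genome, in steps of 0.2 kb, to 1 of 18 states. Its name ties it to WT HSCs and to H3.3, but which libraries or marks entered it, and the depth behind it, were not found in the labels or headers. It has no replicate, so no value below carries a replicate error or a test. Intervals printed with shares are 95% Wilson intervals over blocks or genes and cover counting error only. Neighbouring blocks in 1 gene also share their source. Spread over autosomes is given where a value was recomputed per autosome. HIRA KO values of these blocks were not analysed here.

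H3.3 is a histone H3 variant that is placed into chromatin outside of DNA replication. The HIRA complex places it at active promoters, enhancers and along transcribed gene bodies, while the ATRX and DAXX proteins place it at telomeres and repeats. Chromatin segmentation programs such as ChromHMM learn recurring combinations of signal and give each stretch of the genome 1 state number. The numbers have no names in the files, so state 8 is described here only by where it lies.

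Sequences are shown first for 4 genes that hold some of the longest blocks: Pcnt, the centrosome scaffold pericentrin; Heatr1, a factor of ribosome biogenesis; Notch2, a receptor of the Notch pathway; and Inpp5d, the inositol phosphatase SHIP1 of blood cells. They are the hosts of the 4 longest blocks among genes whose promoter record starts at the 5′ end of the gene record and whose 250 upstream bases hold no other gene record, and they are shown because the start of a gene and its long block lay apart. Each line gives the 250 bases before the annotated start, 5′ to 3′ on the gene's strand, from RefSeq, build GRCm38.p6. Capitals mark a GC box (GGGCGG, the core of an Sp1/KLF site) or an ETS core (CCGGAAG), each searched on both strands; the other motifs searched, named further on, had no match in these 4 windows.
Pcnt, chr10:76442913-76443162, minus strand: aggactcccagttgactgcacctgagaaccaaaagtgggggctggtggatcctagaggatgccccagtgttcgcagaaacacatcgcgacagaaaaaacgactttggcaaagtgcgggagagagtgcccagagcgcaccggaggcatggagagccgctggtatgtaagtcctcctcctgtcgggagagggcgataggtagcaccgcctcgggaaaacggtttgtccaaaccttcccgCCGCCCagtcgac
Heatr1, chr13:12395125-12395374, plus strand: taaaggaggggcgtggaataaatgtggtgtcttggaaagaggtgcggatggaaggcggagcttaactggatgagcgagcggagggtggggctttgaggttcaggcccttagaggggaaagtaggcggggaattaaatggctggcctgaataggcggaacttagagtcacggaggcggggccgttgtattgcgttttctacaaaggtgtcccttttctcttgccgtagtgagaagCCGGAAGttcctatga
Notch2, chr3:98013288-98013537, plus strand: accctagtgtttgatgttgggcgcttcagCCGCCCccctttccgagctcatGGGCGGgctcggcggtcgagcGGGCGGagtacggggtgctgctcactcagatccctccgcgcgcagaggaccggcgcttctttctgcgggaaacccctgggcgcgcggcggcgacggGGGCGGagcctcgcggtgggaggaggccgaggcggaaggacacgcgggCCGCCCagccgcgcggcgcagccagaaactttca
Inpp5d, chr1:87620062-87620311, plus strand: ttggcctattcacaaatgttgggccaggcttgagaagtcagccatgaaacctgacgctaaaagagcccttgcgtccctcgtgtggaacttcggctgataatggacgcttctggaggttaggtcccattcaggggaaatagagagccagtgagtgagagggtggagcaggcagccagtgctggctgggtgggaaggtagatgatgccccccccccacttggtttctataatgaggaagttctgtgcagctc
The Notch2 window held 5 GC boxes and 34 CpG dinucleotides at a GC content of 72.0%. The Pcnt window held 1 GC box, 13 bases before the start, and the Heatr1 window 1 ETS core, 16 bases before the start. The Inpp5d window held neither motif and 5 CpG dinucleotides. None of these 4 starts lay inside the gene's longest block, which began 1.91 kb downstream in Pcnt, 18.4 kb downstream in Heatr1, 62.1 kb downstream in Inpp5d and 97.5 kb downstream in Notch2.

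The 1396 blocks covered 19.8 Mb. They made up 2.26% of the autosomal state 8 segments and 14.1% of the 141 Mb in state 8, or 0.805% of all autosomal bases. The median block measured 12.6 kb (quartiles 11 and 15.6 kb) and the mean 14.2 ± 4.99 kb (SD over 1396 blocks), against a median of 1.4 kb over all autosomal state 8 segments. Lengths fell off without a step at the limit: 464 segments measured 9 to under 10 kb and 318 measured 10 to under 11 kb. At the limit itself, 63 blocks measured exactly 10.0 kb, among them segments in Pfkfb2 (chr1:130695801-130705800), Prpf18 (chr2:4636401-4646400) and Tsc1 (chr2:28670201-28680200). Just outside it, 82 segments measured 9.8 kb, among them 1 each in Dst, Actr1b and Mitd1. At the upper end, 138 blocks reached 20 kb, 21 reached 30 kb and 5 reached 40 kb.

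Nearly every long block lay over a protein-coding gene. Of the 1396 blocks, 1394 shared at least 1 base with a protein-coding gene of the RefSeq annotation, and 991 (71.0%) lay wholly inside 1 gene. By bases, 97.7% of the blocks fell in protein-coding gene bodies (97.8 ± 0.796%, mean and SD over 19 autosomes). The same share was 94.6% for state 8 segments under 10 kb (94.6 ± 0.791% over the autosomes) and 39.9% for all autosomal bases. It rose with segment length, from 90.5% for state 8 segments under 1 kb through 96.4% at 5 to 10 kb to 98.3% at 20 kb or more. Segments without any protein-coding base made up 9.49% of those under 1 kb and 0.143% of the long blocks (interval 0.0393% to 0.521%). A longer segment also has more bases with which to reach a gene.

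Length alone did not mark gene bodies in this map. Segments of 10 kb or more of state 17 numbered 8012, with 56.6% of their bases in protein-coding genes. State 11 had 3854 long segments with 37.0% in genes, state 15 had 355 with 24.0% and state 18 had 35880 with 31.7%. State 12, with 64 long segments and 71.8%, came closest to state 8 among the states with at least 50 long segments. States 3 to 7, 10, 13 and 16 had no segment of 10 kb.

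Both blocks that touched no protein-coding gene were close to 1. The first, chr5:72284201-72297200, measured 13.0 kb, had state 7 on both sides and lay wholly inside Atp10d, which the annotation records as a transcribed pseudogene. Its nearest protein-coding gene was Corin, 2.75 kb away. The other, chr17:6453801-6465000, measured 11.2 kb, overlapped no gene record, and lay 13.3 kb from Dynlt1b, a dynein light chain gene. Both were thus under 15 kb.

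The longest blocks lay in genes of transcription, transport, protein turnover and the cytoskeleton. Trrap, the scaffold subunit of several histone acetyltransferase complexes, held a block of 76.2 kb (chr5:144778801-144855000) that covered 82.8% of the gene, from 11.1 kb after its start to 4.78 kb before its end. The block at Dync1h1, the heavy chain of cytoplasmic dynein, measured 57.0 kb (chr12:110611801-110668800). Of it 55.1 kb lay in Dync1h1, or 84.1% of the gene, and this block ran 1.86 kb past the gene's end. Prrc2b followed with 42.8 kb and Pcnt with 41.8 kb. In these 4 genes the block filled very different parts: most of Trrap and Dync1h1, 51.3% of Prrc2b and 45.6% of Pcnt.

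The other blocks among the 12 longest spanned 34.2 to 41.0 kb. Ubr2, a ubiquitin ligase that reads N-terminal residues, held 41.0 kb. Cyfip2, a subunit of the actin-regulating WAVE complex, held 37.0 kb. The block at Heatr1 also measured 37.0 kb, of which 25.1 kb lay in Heatr1. These were followed by blocks of 34.6 kb each at Notch2 and the chromodomain gene Cdyl2, the latter with 33.9 kb in the gene. The myosin gene Myo18a held 34.4 kb, and Ankrd27, a regulator of endosomal traffic, 34.2 kb. Cdyl2 was the exception in its flanks: its block lay between state 18 and state 12, while each of the other 11 had state 17 or state 7 on at least 1 side. In Notch2 and Cdyl2 the block was a minor part of a long gene, 25.3% and 20.6% of it.

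**Figure D1:**
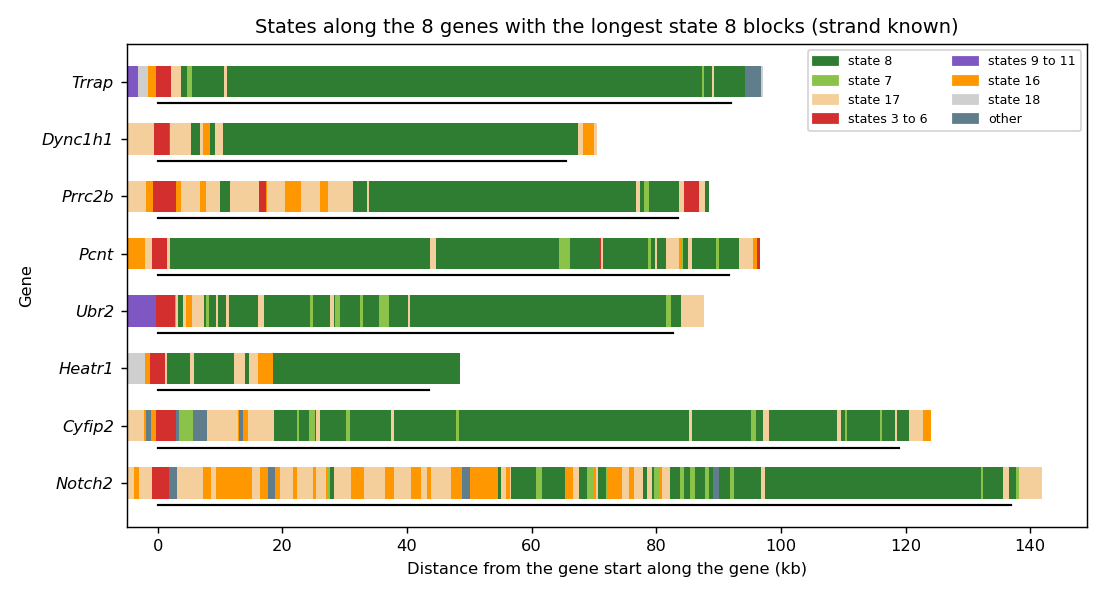
States along the 8 genes with the longest long blocks and a known strand, each drawn from 5 kb before its start to 5 kb past its end; the horizontal axis is distance from the gene start in kb, colours are states, and the black line under each row is the gene. State 8 (dark green) begins after a short run of states 3 to 6 (red) in Trrap and Pcnt and the long block of Notch2 lies in the far part of that gene after shorter state 8 segments; in Heatr1 the block runs on past the gene's end.

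Blocks were also counted per gene. A host was defined as the protein-coding gene with the most bases in a block; 1239 genes were hosts, of which 1108 held 1 block, 112 held 2, 15 held 3, 3 held 4 and 1 held 5. Summed over its blocks, Trrap led with 76.2 kb in 1 block, and Ubr4, another N-recognin ubiquitin ligase, came next with 73.0 kb in 4 blocks. Mtor, the kinase of nutrient sensing, had 64.6 kb in 3 blocks and Pcnt 61.4 kb in 2. Dock2, the Rac activator of blood cells, had 59.8 kb in 4 blocks, and Sipa1l3, a Rap GTPase activator, had 58.4 kb in 5. Cyfip2 had 58.0 kb in 3 blocks and Nup210, a membrane glycoprotein of the nuclear pore, 56.0 kb in 4. Ubr4 and Dock2 show how different such genes were: the blocks took 67.0% of Ubr4, which spans 108.9 kb, and 10.7% of Dock2, which spans 557.1 kb. State 8 of any length covered 87.9% of Ubr4 and 36.8% of Dock2.

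The gaps between neighbouring blocks of 1 host were often short. Over 155 such gaps the median was 5.8 kb and the range 0.4 to 436.6 kb, and 51 were under 2 kb. In 51 gaps a single segment of another state parted the blocks, state 17 in 31 of them and state 7 in 18, while 102 gaps held further, shorter state 8 segments. By bases the gaps were 51.7% state 8, 29.1% state 17 and 5.06% state 7. In 51 of the 155 cases, then, only 1 segment kept neighbouring blocks from being counted as 1 longer block.

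At the borders, long blocks met states 17 and 7. Of 2792 borders, 1910 (68.4%) touched state 17 and 676 (24.2%) touched state 7 (24.1 ± 5.00% over 19 autosomes). State 8 segments were also joined where a single segment of up to 1000 bp parted them, which removes state 7 gaps of that size. With this joining, 14.5% of the borders of 3498 blocks touched state 7. States 12, 16, 6, 13 and 18 took 59, 48, 36, 20 and 18 borders. State 8 segments under 10 kb touched state 17 at 76.1% of their borders and state 7 at 14.6%. By length class, state 7 took 20.9% of borders at 5 to under 10 kb, 24.4% at 10 to under 20 kb and 22.1% at 20 kb or more. Both ends of a block were state 17 in 680 blocks (48.7%), 1 end each in 17 and 7 in 410 (29.4%), and both state 7 in 110 (7.88%), Inpp5d among them. Read along the gene, where the strand was known for 1144 blocks, state 7 lay at the upstream border in 243 (21.2%) and at the downstream border in 306 (26.7%). States 3 to 6 lay at the upstream border in 37 (3.23%) and at the downstream border in 8 (0.699%), against 1.34% and 0.252% for the shorter state 8 segments.

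Long blocks lay toward the 3′ part of their genes. None of the 1144 blocks with a known host strand reached the host's annotated start; the closest began 0.858 kb after it. The first block of a gene began at a median of 14.7 kb from the start (quartiles 5.72 and 38.4 kb, 1016 hosts), and the medians of 18 autosomes averaged 15.6 ± 4.93 kb (SD), from 7.51 to 26.0 kb. Within 2 kb of the start began 66 first blocks (6.5%), Pcnt's among them, and within 5 kb 223 (21.9%). With the gene cut into 4 equal parts, the middle of the block fell in the first for 48 blocks (4.20%), in the second for 177 (15.5%), in the next for 479 (41.9%) and in the last for 440 (38.5%). For state 8 segments under 10 kb the same shares were 15.2%, 23.4%, 27.5% and 33.9%. A long segment wholly inside its gene cannot have its middle close to the start or the end. Blocks that run past the gene's end can have it there, while none reached past the start. Hosts of long blocks were also shorter than those of short segments (median 42.3 against 72.9 kb, counted per segment). The 4 parts are therefore not the same measure for both.

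Many blocks ran through the end of the gene. Of the 1144, 333 (29.1%) ended past the host's annotated end, at a median of 1.37 kb and at most 11.9 kb beyond it, the latter in Heatr1. Of these 333 blocks, 100 also touched another protein-coding gene, as the one of Heatr1 did, which holds 11.4 kb of Lgals8. Another 323 (28.2%) stopped within 5 kb before the end and 488 (42.7%) stopped more than 5 kb short of it. The share that passed the end rose over the length classes of state 8, from 1.42% under 1 kb and 9.29% at 2 to 5 kb to 28.1% at 10 to 20 kb and 37.9% at 20 kb or more. Blocks contained 435 annotated gene ends, 21.9 per Mb, and 13 gene starts, 0.656 per Mb. For the shorter state 8 segments the densities were 27.5 ends and 1.03 starts per Mb. Per base, then, long blocks held no more gene ends than short segments did, and both held many times more ends than starts.

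The state profile over whole genes showed the same order. In 824 hosts of 20 kb or more with a known strand, each cut into 20 equal parts, state 8 took 3.33% of the first part and 18.7% of the second. It took 65.5% of part 10, was highest in part 18 with 80.6%, and stood at 69.7% in the last. It fell to 36.7% in the first 2 kb after the gene's end and 17.4% in the next. States 3 to 6 took 63.8% of the first part and 36.2% of the 2 kb upstream of the start. State 17 went from 44.3% in the second part to 12.0% in part 18, and state 7 stood at 5.10% in the last. In 4130 genes of this size whose state 8 lay only in segments under 10 kb, state 8 also rose along the gene, from 2.20% in the first part to 42.3% in the part before the last. The level along hosts was in part set by the rule, which asked for long state 8. The rule named no place along the gene. Its length limit still restricts where a block fits, most of all in genes near 20 kb, so the place was not free of the rule.

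**Figure D2:**
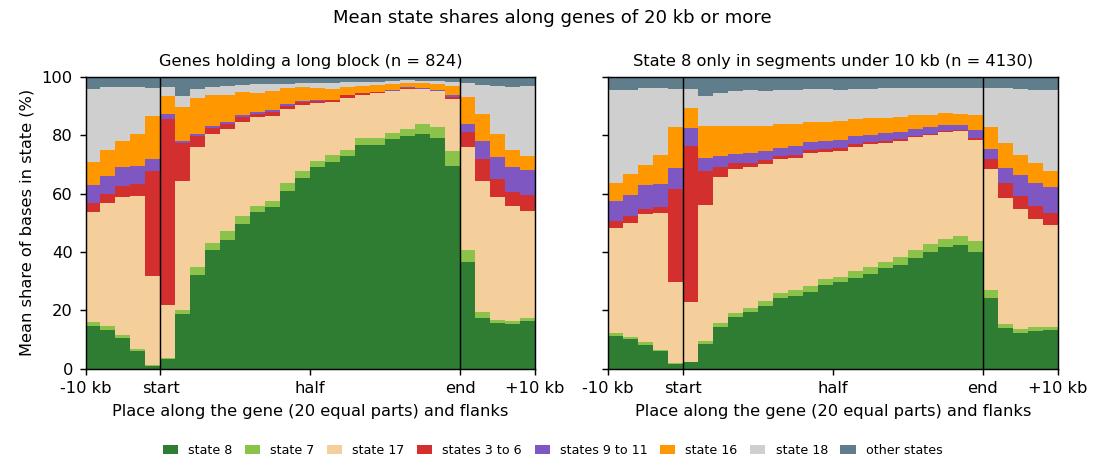
Mean share of bases in each state (vertical axis, %) along genes of 20 kb or more, in 20 equal parts between start and end with 10 kb on each side in steps of 2 kb; left, 824 genes that hold a long block, right, 4130 genes with state 8 only in shorter segments. State 8 (dark green) is near 0 at the start and highest just before the end in both panels, at 80.6% on the left and 42.3% on the right.

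Genes with a long block mostly started in states 3 to 6. In 1009 hosts of 10 kb or more with a known strand, the base of the annotated start lay in states 3 to 6 in 888 (88.0%): state 6 in 29.6%, state 5 in 22.4%, state 3 in 19.5% and state 4 in 16.5%. In 9469 genes of that size without a long block, the share was 53.1%. Starts in states 9 to 11 made up 2.28% and 20.1% in these 2 sets. The set without a long block mixes genes with shorter state 8 segments and genes without state 8. In genes of 20 kb or more cut into 20 parts, states 3 to 6 took 63.8% of the first part in hosts. They took 53.4% of it in the 4130 genes with state 8 only in shorter segments, and 6.31% in 2580 genes without state 8. The annotated end lay in state 8 in 58.9% of the hosts, in state 17 in 21.7% and in state 7 in 6.34%. Without a long block, 22.2% of ends lay in state 8, 27.3% in state 17 and 25.9% in state 18. Between the start and the first block, 42.1% of bases were state 17, 26.5% were shorter state 8 segments, 10.4% state 16 and 7.16% state 18. The usual order along such a gene was therefore states 3 to 6 at the start, then state 17 mixed with short state 8, then the block.

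Gene length set an outer frame. Over all 20560 autosomal protein-coding genes, 1371 (6.67%) had at least 1 base in a long block, and over the 13282 genes of 10 kb or more, 1316 (9.91%) did. The share was 0.756% in genes under 10 kb (55 of 7278, each reached by a block that ran past the gene), 6.99% at 10 to 20 kb, 11.9% at 20 to 50 kb, 11.7% at 50 to 100 kb and 10.7% at 100 to 200 kb. It was 6.45% at 200 to 500 kb (47 of 729) and 2.78% at 500 kb or more (6 of 216), Dock2 being 1 of these 6. The chance to hold a block did not go on rising with length. The median host measured 38.6 kb, and its blocks took a median of 38.2% of it; in 433 hosts (34.9%) they took 50% or more. State 8 of any length took a median of 65.8% of hosts and 7.07% of genes of 10 kb or more without a long block. A long block was not needed for a high share: 1563 genes of 10 kb or more without one were in state 8 over at least 50% of their length, and 4870 of the 13282 (36.7%) had no state 8 at all.

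**Figure D3:**
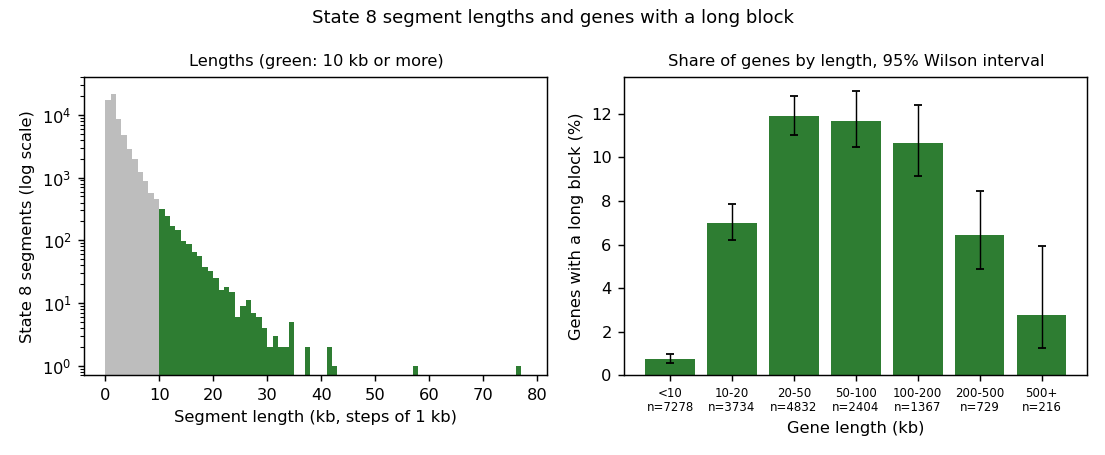
Left, number of autosomal state 8 segments (vertical axis, log scale) by length in steps of 1 kb, with the 1396 segments of 10 kb or more in green; right, share of protein-coding genes with a base in a long block by gene length, with 95% Wilson intervals and the number of genes under each bar. The lengths fall smoothly through the limit, and the share of genes is highest, at 11.9%, for genes of 20 to 50 kb.

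A minority of blocks spanned more than 1 gene, and where strands were known most of these genes were convergent neighbours. Of the 1396 blocks, 133 touched 2 protein-coding genes and 3 touched 3, together 9.74%. In 92 of these 136 the strands were known and neither gene lay inside the other: 86 pairs (93.5%) were convergent, 6 (6.52%) tandem and 0 divergent; 13 were nested and for 31 a strand was missing. Of 6102 neighbouring gene pairs within 10 kb of each other over the genome, 31.5% were convergent and 45.0% tandem. These pairs were taken whatever their state, while the blocks contained 435 gene ends and 13 gene starts. A block that enters a second gene therefore mostly does so through that gene's end, so the convergent share is not a separate result. The 3 blocks on 3 genes lay at Upf1, Gdf1 and Cers1 (chr8:70331201-70344400, 13.2 kb), at Ncaph2, Sco2 and Tymp (chr15:89359801-89372800, 13.0 kb) and in the nested records Xntrpc, Xndc1 and Trpc2 (chr7:102073001-102084000, 11 kb). Upf1 encodes the helicase of nonsense-mediated decay and held 12.9 kb of its block, while Gdf1 held 0.392 kb and Cers1 0.388 kb. Of the block at Heatr1 and Lgals8, a galectin gene, 25.1 kb lay in Heatr1 and 11.4 kb in Lgals8. Dync1h1 shared its block with 1700001K19Rik over 1.11 kb, and Cyfip2 with the nested Fndc9 over 4.32 kb. The map has no strand, so it does not tell overlapping and convergent genes apart; the host of such a block is only the gene with the most of its bases.

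Gene groups were described with 31 lists of pathways and cell type markers, which hold 782 genes on the autosomes, 184 of them with a base in a long block and 180 of them the host of one. Shares below are over list members of 10 kb or more and stand beside 9.91% for all genes of that size. These lists were compiled with earlier results of these data known, so no list was tested, and the figures describe the members only.

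The list of histone methyltransferases and demethylases had the highest share of the 31 lists. Of 28 histone methyltransferase and demethylase genes, 17 (60.7%, interval 42.4% to 76.4%) had one, led by Kmt2d with 33.2 kb in 2 blocks, 78.3% of the gene. Kmt2a had 30.6 kb in 2 blocks and Nsd3 26.6 kb in 2; both encode methyltransferases, as Kmt2d does. Setd2, the methyltransferase of transcribed gene bodies, and Nsd2 had no long block, although state 8 covered 56.1% of Setd2 and 37.2% of Nsd2. Of 21 genes of acetyltransferase complexes, 10 (47.6%) had a block: Trrap, the coactivator Crebbp with 30.8 kb in 2 blocks, Brpf3 with 18.4 kb, and 7 others. Of 28 chromatin remodeler genes, 12 (42.9%) had one, with 40.2 kb in the SWI/SNF ATPase gene Smarca4 and 35.0 kb in Chd8. Smarca5 and Arid1a had none, at 68.0% and 31.9% state 8.

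Genes of transcription elongation and of the Mediator complex gave 3 members each. Supt6, an elongation factor that binds histones, held 20.4 kb, Ell 13.8 kb and Mllt1 11.6 kb, and these were the 3 of 21 genes (14.3%, interval 4.98% to 34.6%) of RNA polymerase II elongation with a block. Polr2a and Polr2b, the genes of the polymerase's largest subunits, had no long block but were 56.1% and 79.5% state 8. Mediator genes gave 3 of 19 (15.8%): Med13l with 33.2 kb in 2 blocks, Med23 with 14.2 kb and Med1 with 12.2 kb. The 9.91% of all genes lies within both intervals, which cover counting error only and are not a test of either list. The intervals of the other lists are not tests either. With 8 kb as the length limit the counts were 8 for elongation and 6 for Mediator. The median share of state 8 over the elongation list was 55.1%, close to the 54.0% of the methyltransferase list. The median gene lengths of these 2 lists were 42.9 and 74.4 kb. Whether gene length bears on their shares with a block was not tested.

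Splicing factor, aminoacyl-tRNA synthetase and translation factor genes gave shares of 40% or more, and genes of RNA decay a lower one. Splicing factors gave 14 of 32 (43.8%), with 28.6 kb in Srrm1, 87.2% of that gene, 28.2 kb in Aqr and 20.8 kb in Snrnp200, each in 2 blocks. Sf3b1 had no block at 53.3% state 8. Aminoacyl-tRNA synthetases, which load amino acids onto tRNAs, gave 9 of 20 (45.0%) and had the highest median share of state 8 of any list, 72.8%. Iars held 26.2 kb, Eprs 26.0 kb and Wars 16.4 kb. Translation factors gave 8 of 20 (40%), led by Eif2ak4, the kinase GCN2, with 28.8 kb, Eif4g3 with 25.2 kb and Gcn1 with 20.7 kb. Genes of nonsense-mediated decay and the CCR4-NOT deadenylase gave 5 of 23 (21.7%), with the exonuclease gene Xrn1 at 25.6 kb, Smg5 at 15.6 kb and Upf1 at 12.9 kb.

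Genes of transport and protein turnover made up further lists. HECT-type and N-recognin ubiquitin ligases gave 13 of 24 (54.2%): Ubr4, Hectd4 with 50.6 kb in 3 blocks, Ubr2 and 10 others. Motors, spectrins and linkers gave 12 of 26 (46.2%), with Pcnt, Dync1h1 and Sptan1, the nonerythroid alpha spectrin, at 46.3 kb. The nuclear pore gave 11 of 26 (42.3%), with Nup210, Nup107 at 28.0 kb and Nup214 at 25.2 kb. Vesicle coats and sorting gave 11 of 28 (39.3%), importins and exportins 8 of 23 (34.8%), in which the exportin gene Xpo5 was 94.1% covered by 2 blocks of together 38.4 kb. The kinase list around mTOR gave 7 of 21 (33.3%), with Mtor, Akt2 at 18.6 kb and Rptor at 11.4 kb, while the DNA damage kinase genes Atm and Atr had none at 59.0% and 36.4% state 8. Of 32 proteasome genes, 20 measured 10 kb or more, with a median length of 20.9 kb. Of these, 2 (10.0%) had a block, Psmd11 and Psmd12, although the median share of state 8 was 54.7%. Oxidative phosphorylation gave 3 of 16 (18.8%), cohesin and condensin 6 of 21 (28.6%), and homologous recombination and Fanconi repair 3 of 24 (12.5%). Of those 3 only Ercc4 hosted its block, while Xrcc3 and Fanci were reached by 5.21 and 2.67 kb of blocks hosted by the convergent neighbours Klc1 and Polg.

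Genes of the stem cell and its signals were mixed. Of 26 HSC regulators and markers, 4 (15.4%, interval 6.15% to 33.5%) had a long block: Prdm16 with 30.6 kb in 2 blocks, Ptpn11, the phosphatase SHP2, with 18.6 kb, Fgd5 with 18.4 kb in 2 and Runx1 with 15.4 kb. Prdm16 and Fgd5 are genes whose expression marks HSCs among marrow cells. Gata2 and Mecom had none, at 13.6% and 8.70% state 8. Cytokine receptor and JAK-STAT genes gave 8 of 25 (32%), with 14.1 kb in Stat5b and 12.8 kb in the interferon gamma receptor gene Ifngr1. Interferon response genes gave 6 of 19 (31.6%), with 20.8 kb in Herc6, 14.2 kb in Adar and 14.0 kb in Trim25. Poly(I:C) had been given to the mice, and whether the blocks in interferon genes depend on it was not tested, as the map has no untreated counterpart here. Genes mutated in clonal hematopoiesis gave 6 of 20 (30%), with Kmt2d, the DNA methyltransferase gene Dnmt3a at 18 kb and Notch1 at 12.8 kb, while Tet2 and Asxl2 had none at 39.7% and 30.7% state 8. Of the H3.3 genes and chaperones, 1 of 11 had long blocks: Cabin1, a subunit of the HIRA complex, with 37.0 kb in 3 blocks. H3f3a, 1 of the genes that encode H3.3, was 41.8% state 8 without a long block.

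Lists of mature blood lineages and of other tissues gave between 0 and 2 genes with a long block each. Erythroid genes gave 2 of 16, or 12.5%, which is not below the 9.91% of all genes (Epb41, a membrane skeleton protein, with 12.4 kb, and the transferrin receptor gene Tfrc with 11 kb), and Klf1 was without state 8. Megakaryocyte genes gave 1 of 11 (9.09%), Nbeal2, a gene of platelet alpha granules, with 19.6 kb, and stromal and endothelial genes 1 of 13 (7.69%), the angiopoietin receptor family gene Tie1 with 15.6 kb. Neutrophil and monocyte genes gave 0 of 7 (upper bound 35.4%), B, T and NK cell genes 0 of 19 (16.8%), neuronal genes 0 of 25 (13.3%) and liver genes 0 of 17 (18.4%). The median share of state 8 was 0 in these 4 lists, and also in the stromal and endothelial list. Among the defining genes of the 4 lists without a block, Elane, Mpo, Cd79a, Snap25, Syt1, Alb and Ttr had no state 8 base. Set side by side by defining markers, 11 of 12 HSC markers had state 8 somewhere in the gene (Hoxb5 did not) and 2, Runx1 and Fgd5, had a long block. Of 25 markers of other cells in marrow, 3 had any state 8 (Csf1r at 1.56%, Itga2b at 8.43% and Pecam1 at 29.5%) and 0 had a long block. Only 10 of the HSC markers and 14 of the others measured 10 kb or more and could hold a whole block; of these, 10 and 3 had state 8, and 2 and 0 a long block. Over all 13282 autosomal protein-coding genes of 10 kb or more, 36.7% had no state 8 and 9.91% had a long block. These counts describe the map, and the purity of the sort was not tested.

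**Figure D4:**
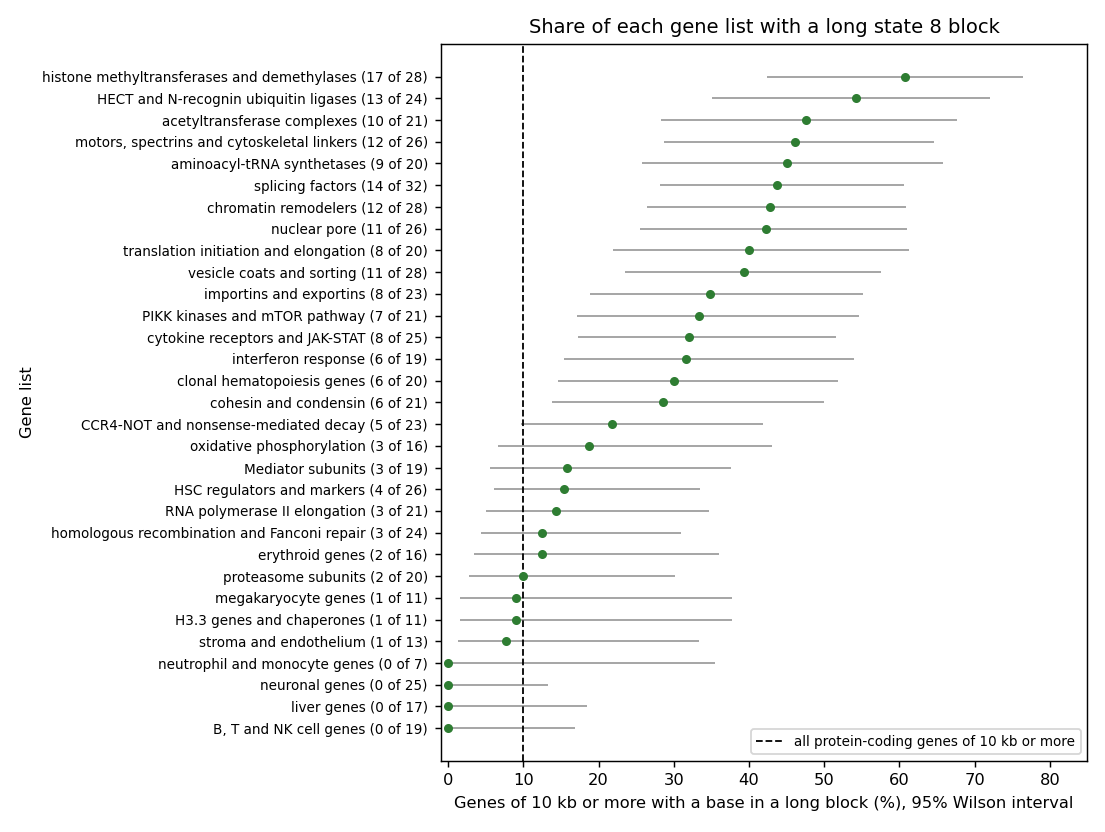
Share of genes of 10 kb or more with a base in a long block (horizontal axis, %) for the 31 gene lists, with 95% Wilson intervals over genes and counts in the labels; the dashed line is the 9.91% of all autosomal protein-coding genes of that size. Histone methyltransferases and demethylases are highest at 60.7%, and 4 lists of lineage or tissue genes are at 0. The intervals cover counting error only, and no list was tested against the dashed line.

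The promoters of genes with a long block were rich in CpG, as were those of other genes that start in states 3 to 6. RefSeq promoter windows, from 250 bases before to 50 after the start, were available for 16457 of the 20560 genes. The median ratio of observed to expected CpG was 0.833 in 1009 hosts of 10 kb or more, 0.672 in 9469 genes of that size without a block and 0.597 over all 16457. Restricted to genes that start in states 3 to 6, it was 0.837 with a block (888 genes) and 0.793 without (5026 genes). In this restricted set the median GC content was 62.3% and 62.0%, a GC box was found in 71.6% and 69.4% of windows, and CCAAT in 35.8% and 39.6%, all on either strand. The TATA box (TATAAA, gene strand only) was found in 2.14% and 3.04%. For the GC box, then, most of the gap between 69.4% of all block genes and 54.3% of all others was absent once the start state was the same.

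Other motifs were searched in the same windows on both strands. The ETS core CCGGAAG was found in 22.9% with a block and 19.4% without, among genes that start in states 3 to 6, against 12.3% of all 16457 windows. The YY1 core AAGATGGCG was found in 5.86% and 3.20%, against 1.92% of all windows. The NRF1 core GCGCATGCG was found in 5.07% and 4.24%, and the CRE TGACGTCA in 3.38% and 3.42%, against 2.45% and 2.40% of all windows. No motif among these lies within another. A match is a string of letters and not a bound site, and these shares were not tested.

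MicroRNA hairpins made up another class of annotated sequence inside the blocks. Of 919 autosomal hairpins in the RefSeq table, 55 (5.98%) lay in 54 blocks that together with all others cover 0.805% of bases; 183 (19.9%) lay in state 8 segments under 10 kb, which cover 4.92%. All 55 lay inside a protein-coding gene, and of the 51 with a known strand of that gene, 50 lay on the gene's strand. The exception was Mir199a-1, antisense within Dnm2. Gene bodies held 97.7% of block bases, so a hairpin in a block mostly lies in a gene by its place. Neither count was made for hairpins outside the long blocks. The shares of bases were not restricted to gene bodies. The 98 mature forms had 95 different seeds (bases 2 to 8), so the hairpins were nearly all unrelated by seed. The 3 shared seeds are shown in capitals, by mature sequence and host gene, because they were the only repeats.
mmu-miR-6904-5p in Parp1: uCCUGGGGuuagaguugagugg
mmu-miR-6914-5p in Ankrd52: uCCUGGGGuggugguggccacaga
mmu-miR-6927-3p in Mllt6: cCUGAGCUggcuccccugcag
mmu-miR-6945-3p in Pdlim7: uCUGAGCUcugcccuucccau
mmu-miR-6911-5p in Dazap1: uGGGCUGAgugggucuguggcau
mmu-miR-7028-5p in Tchp: uGGGCUGAggcuugggucaggag
Each shared seed joined 2 hairpins in different host genes. The blocks around them measured 26.2 kb in Parp1, 17.6 kb in Mllt6, 14.6 kb in Ankrd52, 13.2 kb in Pdlim7 and 12.2 kb in both Dazap1 and Tchp. The map says nothing of whether these microRNAs are made.

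Blocks were unevenly spread over the autosomes. There were 5.75 ± 2.07 blocks per 10 Mb (mean and SD over 19 autosomes), from 2.37 on chromosome 3 to 10.4 on chromosome 11. Chromosome 5, with 136 blocks, had 8.96 per 10 Mb and chromosome 14 had 2.64. Block density followed gene density, with Pearson's r = 0.693 and Spearman's rho = 0.807 over 19 autosomes; this is a description of 1 map, and the points share that map. Counted per gene of 10 kb or more the spread was narrower, 9.81 ± 2.62%, from 4.88% on chromosome 14 to 13.7% on chromosome 5. Chromosome 5 carries Trrap, Hectd4, Med13l and Gcn1 of the genes named above.

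**Figure D5:**
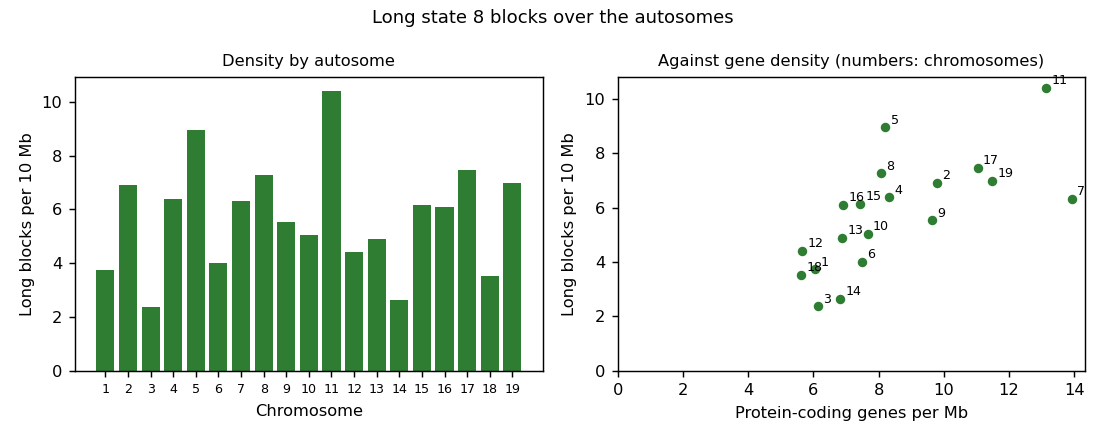
Left, long state 8 blocks per 10 Mb on each of the 19 autosomes; right, the same densities (vertical axis) against protein-coding genes per Mb (horizontal axis), 1 numbered point per autosome. Chromosome 11 is highest at 10.4 blocks per 10 Mb and chromosome 3 lowest at 2.37, and chromosome 5 lies above autosomes of similar gene density.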

How the data were processed

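The map was deposited by the authors as a table of segments with a state number (1 to 18) on mm10, the build named in the submitters' processing notes; per the file headers it has 18 states in emission order, and the name of the deposited table calls it ChromHMM. Those notes also name Bowtie2, MACS2, deepTools and HOMER, with no versions; settings and the tracks behind the map are not stated there. The deposited score column is 0 throughout and was not used.

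State 8 segments of 10000 bp or more on chromosomes 1 to 19 were kept as deposited and joined to RefSeq protein-coding gene records (GRCm38.p6) by overlap of 1 bp or more. Strand came from the RefSeq promoter table, which covers 16457 of 20560 genes and none on chromosome 18. Exons were not used here. Python 3.11.15, pandas 2.3.3, numpy 2.4.6 and scipy 1.17.1 were used. On a simulated map of 400 genes, 280 of 280 planted blocks were recovered. The planted blocks were written as finished state 8 segments of 10 kb or more. This checks the code and not the calling of states from reads.

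The members and gene lists were chosen with earlier results of these data known. Named genes were the 12 longest blocks' hosts, the 8 genes with most block bases, genes with 4 or more blocks, the 6 blocks on most genes, blocks without a gene, the first 3 on each side of the length limit, and in each list the 3 members with most block bases and the first 2 without; any others were chosen after their values were seen. A few genes that this rule names are not reported here.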

Additional observations from a re-analysis of the deposited data

How the results depend on the processing

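The counts follow the length limit by construction. With 8 kb, 15 kb and 20 kb as the limit there were 2424, 416 and 138 blocks, holding 20.5%, 5.84% and 2.51% of state 8 bases and reaching 2205, 445 and 158 genes. Their share in gene bodies was 97.4%, 98.3% and 98.3%, the share of blocks without a gene was 0.0 at 15 and 20 kb, and borders with state 7 made up 22.1% at 20 kb. List genes with a block numbered 184 as reported and 73 at 15 kb, where 8 of 31 lists were at 0 against 4. Single lists changed by more than 1.5 times in 33 of 93 recounts, and lists above the share of all genes numbered 25, 24 and 23 at 8, 10 and 15 kb. Joining state 8 segments over gaps of up to 1000 bp, an alternative chosen after seeing the data, gave 3498 blocks, 37.4% of state 8 bases, 3262 genes, 97.1% in gene bodies and 14.5% of borders with state 7; joining over 200 bp changed nothing, as no gap is that short. Adding X gave 13.9% of state 8 bases, and all gene records gave 97.9% in gene bodies. The median distance to the first block was 20.6 kb in genes of 20 kb or more, where shorter genes are left out. The other 31 recomputed values moved by less than their spread or interval (counts: by less than 1.5 times), among them all those from the expanded version of the map. For shares of bases that interval counted bins of 200 bp, and for the border share it counted borders. Bins of 1 block are not independent, so these intervals are too narrow and small shifts fall outside them. No paired analysis was possible because the map is a single table with no replicate column, and no library could be left out. The depth behind the map is unknown, so breaks between blocks that come from thin coverage cannot be told from others.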

Other observations

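Outside the autosomes, state 8 segments of 10 kb or more numbered 2 on chromosome X and 1 on chromosome Y, and they entered none of the values above.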
